A study of Mus musculus with 67 samples.

Results

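Extra-embryonic ectoderm (ExE) of stage E4.75 was compared with trophectoderm (TE) of stage E4.5 in wild-type mouse embryos (E, embryonic day), with 3 libraries in each group. These 6 libraries, chosen by the tissue and stage in their labels, are 6 of the 67 RNA-seq libraries of a study of how chromatin is remodelled around implantation. All groups share a wild-type genotype and a line in which the promoter of Pdgfra, a receptor gene of primitive endoderm, drives an EGFP reporter that helped to separate lineages. Embryos came from natural matings and were taken from the decidua, and some peri-implantation embryos were grown in a 3D culture. The labels of these 2 groups do not say whether the embryos were cultured. Embryos were digested with trypsin to single cells, and about 10 to 100 cells were lysed per library. Polyadenylated RNA was copied to cDNA and amplified for 17 cycles. The protocol gives 3 biological replicates per group but leaves unsaid which libraries had embryos of their own, so p-values rest on the spread of these libraries, part of which may be technical. Further libraries set beside the comparison are trophoblast giant cells (TGC) of E4.75, epiblast (Epi) of E4.75, primitive endoderm (PrE) of E4.75 and TE of E3.5, with 3 libraries each. Unless a stage is given, ExE below means E4.75 and TE means E4.5.

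The trophectoderm is the outer epithelium of the blastocyst and gives rise to the trophoblast of the placenta. Its polar cells, which lie over the epiblast, keep dividing under FGF from the epiblast and build the extra-embryonic ectoderm and, beyond it, the ectoplacental cone. Its mural cells stop dividing, go through endocycles and become the primary trophoblast giant cells that invade the uterus. Eomes and Elf5 encode transcription factors that hold trophoblast stem cells and the extra-embryonic ectoderm, Hand1 drives giant cell differentiation, and Ascl2 maintains the ectoplacental cone. The extra-embryonic ectoderm also sends BMP4 to the epiblast next to it.

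Levels are the authors' TPM, a transcript's length-corrected share of its library, which keep no depth, so the reads behind a value are unknown. Differences are ExE minus TE on the log2(TPM + 1) scale, ± the standard error of a limma fit to all 67 libraries. That scale understates the change of low genes. A gene was called where its Benjamini-Hochberg adjusted p over 15567 genes was under 0.05 and its log2 difference was 1 or more in size. Between 10609 and 10645 genes reached 1 TPM in ExE libraries, against 9030 to 9090 in TE libraries. The top 500 genes took 60.0% to 60.8% of all TPM in ExE and 69.2% to 70.3% in TE. The scaling factors that align the median gene (median-ratio scaling) were 1.06 to 1.11 in ExE and 0.633 to 0.677 in TE. Rn45s, the precursor of ribosomal RNA, was at 4403, 6159 and 6069 TPM in ExE and 1056, 994 and 1008 TPM in TE, a share of 0.560% ± 0.09996 in ExE and 0.103% ± 0.00330 in TE (SD, n = 3 each). The 3 TE libraries had the smallest Rn45s shares of all 67. Pearson correlations across genes were 0.993 to 0.995 within the groups and 0.955 to 0.958 between them. The Y-linked Eif2s3y was listed at 0 in all 3 ExE libraries and was at 15.7, 17.4 and 19.3 TPM in TE. Xist, the RNA of the inactive X chromosome, was at 25.3, 19.53 and 15.49 TPM in ExE and 3.22, 4.62 and 3.90 TPM in TE. Sex, composition and stage therefore cannot be told apart in this comparison.

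Of the 15567 genes, 3276 were called (21.0%), of which 2993 were higher in ExE (19.2%) and 283 lower (1.82%). The median of the 15567 genes was 0.40 higher in ExE on the log2 scale. Over the 10421 genes kept when only the 6 libraries were filtered on, the median was 0.70. Of those 10421 genes 3143 were called higher, a larger share than 19.2%. A list share below can thus exceed 19.2% and still show no excess over the 10421 genes. With a filter of 5 TPM the median was 0.62 over 11809 genes. Values below are to be read against these shifts, so a list median near 0.70 shows no excess over the 10421 genes. With the median gene aligned, 2190 genes were called (14.1%), 1160 higher (7.45%) and 1030 lower (6.62%), so 52.97% of the calls were higher, against 91.4% as deposited. Quantile normalization, which gives every library the same distribution, called 1845 (11.9%), 965 higher (6.20%) and 880 lower (5.65%). All 1160 and 960 of the 965 were among the 2993, and the 283 lower genes were all still called after median-ratio scaling and 264 of them after quantile normalization. Dropping Rn45s and rescaling each library to 1e+06 called 3271 of 15699 genes (20.8%), 2991 higher (19.1%) and 280 lower (1.78%), with 2969 and 279 shared with the calls as deposited. That step moved single genes by -0.02 to 0.02. The 6 libraries did not overlap in 8445 genes that were higher in ExE (54.2%) and 1529 that were lower (9.82%). In bulk samples, fewer cells of a type and less RNA per cell cannot be told apart.

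**Figure D1:**
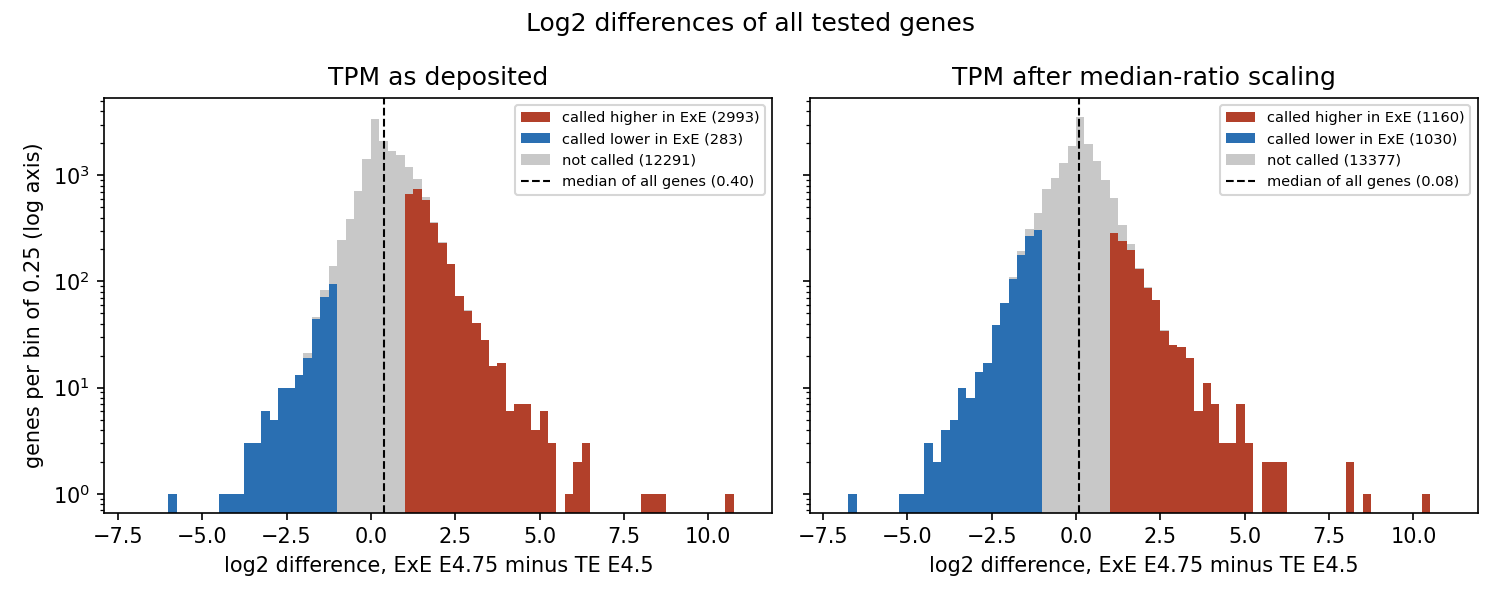
Histograms of the log2 difference (ExE of E4.75 minus TE of E4.5, x axis) of the 15567 genes tested, with genes per bin on a log y axis, red for genes called higher, blue for lower and grey for the rest, as deposited (left) and after median-ratio scaling (right). The dashed median lies at 0.40 as deposited and at 0.08 after the scaling, and the blue side holds 283 genes on the left and 1030 on the right.

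Eomes (GRCm38 chromosome 9, 118478212 to 118486132), a T-box factor needed for trophoblast outgrowth, had 108, 99.98 and 92.3 TPM in ExE, against 35.02, 37.7 and 45.3 TPM in TE. The ExE libraries were all above the TE libraries, and the log2 difference was 1.33 ± 0.24 (adjusted p = 1.89e-05). After median-ratio scaling it was 0.62 (adjusted p = 0.0749) and after quantile normalization 0.74 (adjusted p = 0.0257), neither of which was called. Among the other tissues of E4.75, Eomes was at 59.7 ± 1.97 TPM in Epi and 58.0 ± 4.87 TPM in PrE (SD, n = 3 each). Elf5 (chromosome 2, 103411688 to 103450989), an ETS factor that keeps trophoblast fate, had 211, 186 and 198 TPM in ExE, against 186, 178 and 185 TPM in TE. The lowest ExE library was barely above the highest TE library, and the log2 difference was 0.12 ± 0.24 (adjusted p = 0.827). The direction turned after median-ratio scaling (-0.60, adjusted p = 0.0523) and quantile normalization (-0.02). In the younger TE of E3.5, Elf5 averaged 12.9 ± 3.63 TPM, where ExE was called higher (3.88 ± 0.24, adjusted p = 3.3e-19). In PrE, Elf5 was near 0 at 0.169 ± 0.173 TPM, while Epi held more (values with the endoderm genes).

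Of 20 genes of the extra-embryonic ectoderm and trophoblast stem cells, 7 were called higher in ExE (35%, against 19.2% of all genes) and 0 lower. Their median log2 difference of 0.78 was near the 0.70 of the 10421 genes, of which 3143 were called higher. The 7 called were Eomes, Bmp4, Tfap2c, Bmp8b, Wnt7b, Usp9x and Sox2. Bmp4 (chromosome 14, 46383520 to 46390669), the BMP ligand that ExE presents to the epiblast, had 65.9, 65.3 and 72.4 TPM in ExE, against 9.07, 9.91 and 14.0 TPM in TE. The ExE libraries were close to each other and all far above the TE libraries, and the log2 difference was 2.54 ± 0.61 (adjusted p = 0.000947). Bmp4 was at 0.610 ± 0.425 TPM in TE of E3.5, and at 281 ± 50.1 TPM in ExE of E5.5 in vivo (n = 2). Bmp8b (chromosome 4, 123105165 to 123132099), a second BMP ligand of ExE, had 14.7, 11.4 and 13.4 TPM in ExE and 1.35, 2.03 and 4.19 TPM in TE, without overlap (2.08 ± 0.39, adjusted p = 3.33e-05). Tfap2c, an AP-2 factor of the trophoblast, had 149, 144 and 157 TPM in ExE and 30.9, 35.2 and 29.2 TPM in TE (2.21 ± 0.53, adjusted p = 0.000872). Wnt7b, a WNT ligand, averaged 42.6 ± 1.50003 TPM in ExE and 11.3 ± 1.95 TPM in TE (1.84 ± 0.56, adjusted p = 0.01), and was not called after median-ratio scaling (1.16) or quantile normalization (0.97). Usp9x, an X-linked deubiquitinase, averaged 8.11 ± 0.440 TPM in ExE and 2.02 ± 0.184 TPM in TE (1.59 ± 0.24, adjusted p = 3.91e-07), and was not called after quantile normalization (0.79). Sox2, a factor of both stem cells of the early embryo, was low in both groups, at 2.04 ± 0.376 TPM in ExE and 0.0882 ± 0.0972 TPM in TE (1.48 ± 0.39, adjusted p = 0.00269). Epi was above ExE for 2 of the 7, Sox2 (6.54 ± 0.732 TPM) and Usp9x (18.2 ± 0.805 TPM). PrE was above ExE for 1, Usp9x (10.6 ± 0.556 TPM). Sox2 is also on the epiblast list below, and the part of epiblast RNA in its ExE value was not tested. Cdx2, the trophectoderm factor that maintains trophoblast stem cells, was at 3.02, 1.96 and 2.79 TPM in ExE and 1.54, 4.47 and 4.73 TPM in TE, with overlapping libraries (-0.27 ± 0.48, adjusted p = 0.777). Its level in TE of E3.5 was 30.4 ± 4.99 TPM. After median-ratio scaling 5 of the 20 were higher and 1 lower, and after quantile normalization 4 were higher and 0 lower.

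**Figure D2:**
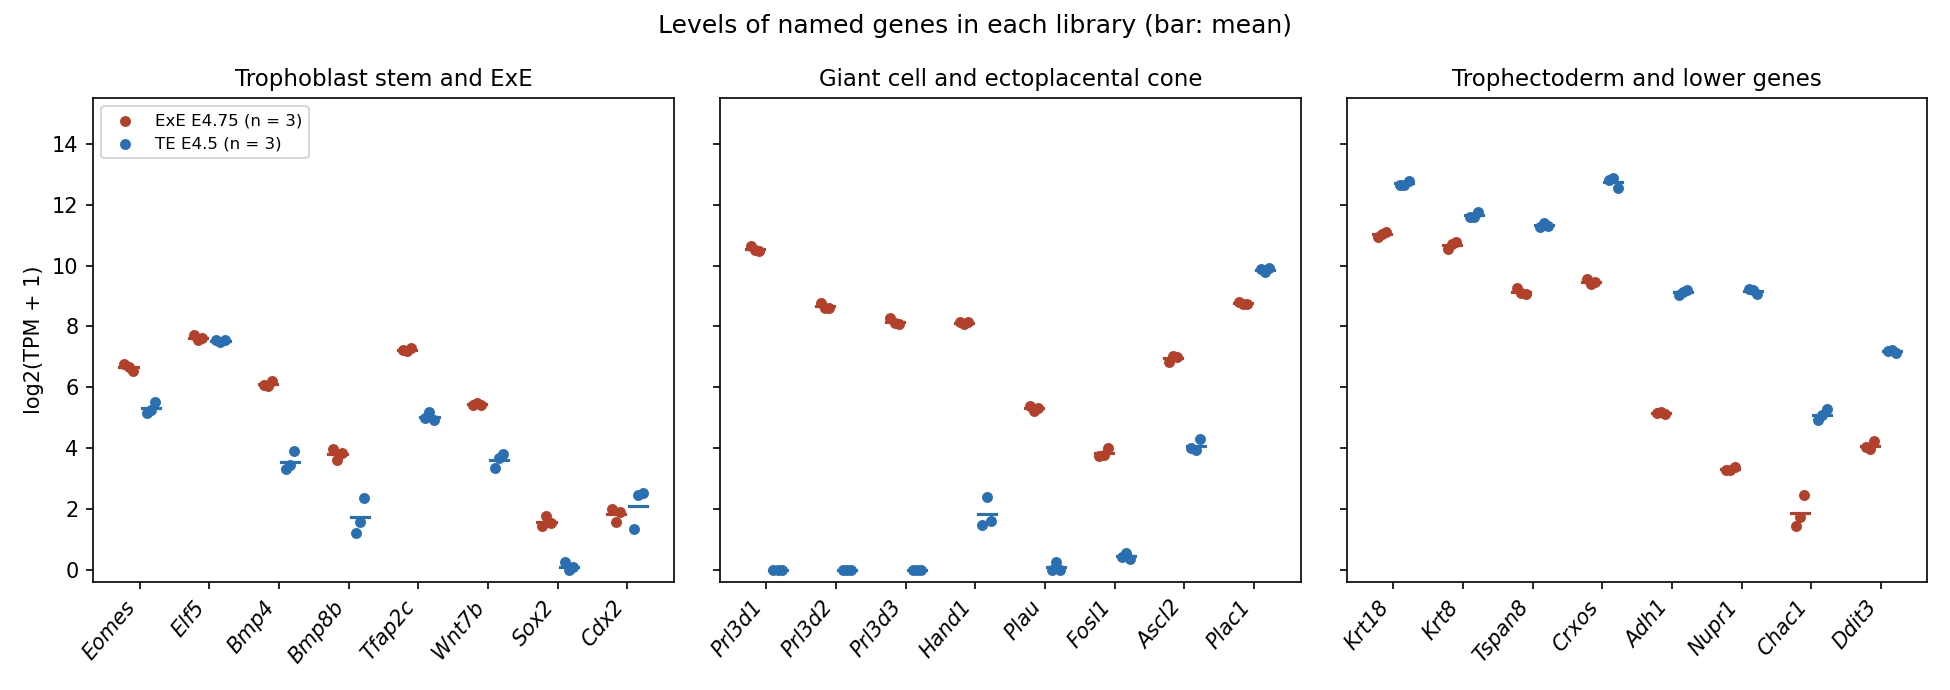
Level as log2(TPM + 1) of named genes (x axis) in each library, with ExE of E4.75 (red) left of TE of E4.5 (blue), 1 point per library (n = 3 each) and a bar at the mean. The Prl3d genes lie high in ExE and at 0 in TE, and Hand1 lies high in ExE and low in TE. Nupr1 lies far lower in ExE than in TE, and Elf5 lies at about the same height in both.

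Giant cell genes were among the widest differences. The placental lactogen genes Prl3d1, Prl3d2 and Prl3d3, neighbours on chromosome 13 that encode hormones secreted by giant cells, were listed at 0 in every TE library. Their promoters show how alike these copies are, and the stretch from each is printed below with the letters TGACTCA (the AP-1 motif) and TTATCA (the GATA motif TGATAA on the other strand) in capitals. Both factor families are known to act on the Prl3d1 promoter in trophoblast cells. The sequences are RefSeq's on GRCm38.p6, plus strand, at chr13:27094056-27094175, chr13:27121545-27121664 and chr13:27156640-27156759.
Prl3d1: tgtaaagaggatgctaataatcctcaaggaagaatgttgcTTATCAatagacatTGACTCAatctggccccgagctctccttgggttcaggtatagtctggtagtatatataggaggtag
Prl3d2: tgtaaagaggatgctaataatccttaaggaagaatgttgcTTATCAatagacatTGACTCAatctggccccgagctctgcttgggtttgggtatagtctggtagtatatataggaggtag
Prl3d3: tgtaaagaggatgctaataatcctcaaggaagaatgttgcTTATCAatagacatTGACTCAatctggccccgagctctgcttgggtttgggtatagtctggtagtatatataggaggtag
Over the 300-base windows around the start sites, Prl3d2 matched Prl3d1 at 277 of 283 bases aligned without gaps (97.9%), Prl3d3 matched Prl3d1 at 274 of 279 (98.2%), and Prl3d3 matched Prl3d2 at 295 of 296 (99.7%). In Prl3d1 the GATA letters begin 93 bases and the AP-1 letters 79 bases before the start site. Of 32851 RefSeq promoter windows of this length, searched on both strands, 5.2% hold TGACTCA, 9.05% hold TGATAA and 0.603% hold both. These motifs were chosen after the genes' values were seen, and a match describes letters only.

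Prl3d1 (chromosome 13, 27094190 to 27100258) had 1613, 1461 and 1429 TPM in ExE and was listed at 0 in all 3 TE libraries (adjusted p = 8.37e-15). Prl3d2 had 439, 389 and 387 TPM and Prl3d3 309, 276 and 268 TPM in ExE, and both were listed at 0 in TE (adjusted p = 3.96e-18 and 2.7e-17). Given their likeness, the split of reads between the 3 copies is uncertain. All 3 were higher still in TGC, where Prl3d1 was at 20926 ± 2031 TPM, Prl3d2 at 5709 ± 406 TPM and Prl3d3 at 3641 ± 447 TPM (SD, n = 3 each). The difference of ExE from TGC was -3.80 ± 0.85 for Prl3d1 (adjusted p = 0.00134). In ExE of E5.5 in vivo Prl3d1 was at 40.6 ± 25.5 TPM (n = 2).

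Hand1 (chromosome 11, 57828705 to 57832818) had 282, 269 and 282 TPM in ExE, against 1.78, 4.32 and 2.09 TPM in TE. The TE libraries were low and all far below the ExE libraries, and the log2 difference was 6.28 ± 0.33 (adjusted p = 1.19e-21). Its level in TGC was 368 ± 6.80 TPM, and ExE was not called against TGC (-0.41 ± 0.33, adjusted p = 0.744). Plau, urokinase plasminogen activator, a secreted protease of invading trophoblast, had 40.9, 36.8 and 39.4 TPM in ExE and 0, 0.213 and 0 TPM in TE (5.23 ± 0.32, adjusted p = 7.12e-19). Fosl1, an AP-1 factor needed in the placental trophoblast, had 12.4, 12.8 and 15.1 TPM in ExE and 0.344, 0.491 and 0.296 TPM in TE (3.39 ± 0.31, adjusted p = 6.84e-13). In TGC Plau was at 189 ± 12.3 TPM and Fosl1 at 127 ± 11.6 TPM, both called lower in ExE than in TGC (-2.25 and -3.15). Of 14 giant cell genes tested, 6 were called higher in ExE than in TE (Hand1, Prl3d1, Cts7, Cts8, Fosl1 and Hspb1) and 1 lower (Bhlhe40), with a median log2 difference of 0.38. TGC was above ExE for 5 of these 6, and the exception was Hspb1, with means of 453 TPM in ExE and 136 TPM in TGC. The higher and lower counts of this list were 6 and 2 after median-ratio scaling and 6 and 2 after quantile normalization. Bhlhe40, a helix-loop-helix repressor of giant cells, had 3.32, 2.90 and 3.74 TPM in ExE and 11.1, 12.99 and 14.4 TPM in TE (-1.68 ± 0.59, adjusted p = 0.0256), a call lost when any 1 of 4 of the 6 libraries was left out (adjusted p from 0.0606 to 0.0739). The giant cell genes Prl3b1, Ctsq, Ctsj and Pappa2 were listed at 0 in all 6 libraries. Plac1, an X-linked trophoblast gene, was at 442, 427 and 427 TPM in ExE and 941, 883 and 968 TPM in TE (-1.10 ± 0.52, adjusted p = 0.105). It was called lower after median-ratio scaling (-1.83) and not after quantile normalization (-0.96). A limma fit of only the 6 libraries, whose spread leaves out the other tissues, also called Plac1 lower (-1.10, adjusted p = 7.22e-07).

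Of 8 ectoplacental cone genes tested, 3 were called higher (Cited1, Ascl2 and Peg10) and 0 lower, with a median log2 difference of 0.68. PrE was above ExE for 1 of the 3, Cited1, which is also on the endoderm list below. Cited1 averaged 269 ± 10.0 TPM in ExE, 10.3 ± 1.94 TPM in TE and 2442 ± 60.5 TPM in PrE. The list's higher and lower counts were 2 and 1 after median-ratio scaling and 2 and 0 after quantile normalization, Peg10 having lost its call in both. Ascl2 (chromosome 7, 142966829 to 142969264) had 112, 129 and 127 TPM in ExE, against 15.1, 14.6 and 18.7 TPM in TE. The groups lay far apart, with a log2 difference of 2.86 ± 0.60 (adjusted p = 0.000154), and Ascl2 was near 0 in TE of E3.5 at 0.0906 ± 0.157 TPM. Phlda2, an imprinted brake on placental growth, was at 297, 317 and 336 TPM in ExE and 615, 609 and 604 TPM in TE. Its difference of -0.94 ± 0.32 stayed short of 1 (adjusted p = 0.02) and was called lower after median-ratio scaling (-1.67). Tpbpa, Tpbpb and Prl8a8, genes of the later spongiotrophoblast, were listed at 0 in all 6 libraries.

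Trophectoderm genes split in direction. Of 18, 5 were called higher (Dab2, Lrp2, Tead4, Cldn4 and Aqp3) and 5 lower (Dppa1, Tspan8, Krt18, Acer1 and Lgals1), with a median log2 difference of 0.30 as deposited and -0.41 after median-ratio scaling. Counts of higher and lower genes were 2 and 7 after median-ratio scaling and 2 and 4 after quantile normalization. Krt18 (chromosome 15, 102028180 to 102032027), which encodes a simple epithelial keratin and has processed copies in the genome that make its level uncertain, had 1973, 2122 and 2183 TPM in ExE, against 6392, 6433 and 7075 TPM in TE. Every TE library held more than the highest ExE library, and the log2 difference was -1.66 ± 0.15 (adjusted p = 8.98e-13). Its partner Krt8 had 1482, 1682 and 1745 TPM in ExE and 3101, 3101 and 3495 TPM in TE, a difference of -0.98 ± 0.28 that stayed just short of 1 (adjusted p = 0.00453). Tspan8, a tetraspanin of the blastocyst's outer cells, had 609.9, 550.1 and 536 TPM in ExE and 2481, 2701 and 2522 TPM in TE (-2.18 ± 0.51, adjusted p = 0.000645). Dppa1, a gene of the preimplantation embryo, had 86.6, 79.6 and 71.8 TPM in ExE and 449.6, 609 and 422 TPM in TE (-2.61 ± 0.26, adjusted p = 1.46e-11). Lgals1, galectin-1, averaged 5393 ± 100.1 TPM in ExE and 11534 ± 548 TPM in TE (-1.10 ± 0.26, adjusted p = 0.000953), not called after quantile normalization (-0.67). Id2, an inhibitor of helix-loop-helix factors, averaged 1138 ± 68.1 TPM in ExE and 1974 ± 85.0 TPM in TE (-0.79 ± 0.22, adjusted p = 0.00341), short of the minimum difference.

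Dab2 (chromosome 15, 6299788 to 6440712), an endocytic adaptor of trophectoderm and endoderm, had 502, 462 and 451 TPM in ExE, against 32.4, 32.4 and 33.3 TPM in TE. The groups lay far apart with little spread in either, with a log2 difference of 3.81 ± 0.29 (adjusted p = 1.74e-15). Lrp2, megalin, an endocytic receptor that works with Dab2, had 23.5, 24.7 and 21.4 TPM in ExE and 2.53, 2.81 and 2.61 TPM in TE (2.73 ± 0.25, adjusted p = 4.86e-13). By stage, Dab2 was at 508 ± 15.6 TPM in TE of E3.5, 32.7 ± 0.502 TPM in TE of E4.5 and 472 ± 26.7 TPM in ExE of E4.75. Lrp2 was at 33.1 ± 1.02 TPM in TE of E3.5, 2.65 ± 0.148 TPM in TE of E4.5 and 23.2 ± 1.69 TPM in ExE of E4.75. Both genes had their lowest mean at the middle stage, and ExE was not called against TE of E3.5 for either (-0.11 and -0.50). PrE held 2293 ± 119.6 TPM of Dab2 and 195 ± 3.49 TPM of Lrp2. Tead4, the TEAD factor that switches on the trophectoderm programme, averaged 26.6 ± 1.45 TPM in ExE and 7.95 ± 1.54 TPM in TE (1.64 ± 0.42, adjusted p = 0.00181), and was not called after median-ratio scaling (0.98) or quantile normalization (0.76). Cldn4, a tight junction claudin, averaged 95.8 ± 6.13 TPM in ExE and 35.4 ± 1.19 TPM in TE (1.41 ± 0.37, adjusted p = 0.00227), with no call after median-ratio scaling (0.70) or quantile normalization (0.78). Aqp3, a water and glycerol channel, averaged 77.4 ± 4.20 TPM in ExE and 34.6 ± 2.96 TPM in TE (1.14 ± 0.42, adjusted p = 0.0342), a call that was lost whichever of the 6 libraries was left out (adjusted p from 0.0593 to 0.0988).

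Of 20 keratin and epithelial junction genes, 5 were called higher (25%, against 19.2% of all genes) and 1 lower (Krt18), with a median of 0.26. That 25% was below the share of the 10421 genes, of which 3143 were called higher. Jup, plakoglobin of adherens junctions and desmosomes, averaged 20.7 ± 2.38 TPM in ExE and 1.91 ± 0.504 TPM in TE (2.90 ± 0.37, adjusted p = 8.12e-09). Cldn6, a claudin of embryonic epithelia, averaged 258 ± 12.3 TPM in ExE and 77.5 ± 3.40 TPM in TE (1.72 ± 0.14, adjusted p = 1.5e-14). The other genes called higher were Perp, Pkp2 and Cldn4, and Pkp2 lost its call when any 1 of 4 of the 6 libraries was left out (adjusted p from 0.0517 to 0.0722). The list's higher and lower counts were 3 and 3 after median-ratio scaling and 3 and 1 after quantile normalization, with a median of -0.43 after median-ratio scaling, and Pkp2 was called in neither.

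Of the 283 genes that were lower in ExE, Nupr1 fell the most, and Chac1 and Ddit3 were among the 12 largest decreases. The promoters of Nupr1 and Chac1 hold the letters TTGCATCA, the other strand of TGATGCAA, to which C/EBP and ATF proteins can bind as a pair. They are printed because these genes are among the largest decreases, with those letters in capitals, from RefSeq on GRCm38.p6: Nupr1 at chr7:126625421-126625720, minus strand, and Chac1 at chr2:119350992-119351291, plus strand.
Nupr1: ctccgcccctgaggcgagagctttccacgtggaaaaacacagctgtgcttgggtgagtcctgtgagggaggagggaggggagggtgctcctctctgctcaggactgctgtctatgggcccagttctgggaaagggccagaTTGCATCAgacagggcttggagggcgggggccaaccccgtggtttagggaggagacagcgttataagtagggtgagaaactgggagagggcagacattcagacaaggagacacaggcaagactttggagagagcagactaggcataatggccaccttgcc
Chac1: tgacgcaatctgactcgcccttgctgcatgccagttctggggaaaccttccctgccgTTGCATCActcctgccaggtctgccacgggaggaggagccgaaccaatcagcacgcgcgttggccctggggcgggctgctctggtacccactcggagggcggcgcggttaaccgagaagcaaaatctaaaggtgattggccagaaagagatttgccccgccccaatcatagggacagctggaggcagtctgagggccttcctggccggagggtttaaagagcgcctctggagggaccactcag
The letters begin 110 bases before the start site in Nupr1 and 193 bases before it in Chac1. They occur on either strand in 294 of 32851 RefSeq promoter windows of 300 bases (0.895%), and the window of Ddit3 does not hold them. The motif was chosen after the values were seen.

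Nupr1 (chromosome 7, 126623249 to 126630861), a stress-induced nuclear protein, had 8.85, 8.78 and 9.41 TPM in ExE, against 593, 584 and 541 TPM in TE. All 3 ExE libraries were far below all 3 TE libraries, with a log2 difference of -5.84 ± 0.47 (adjusted p = 7.33e-15). Chac1, a glutathione-degrading enzyme induced by the integrated stress response, had 1.74, 2.34 and 4.54 TPM in ExE and 29.4, 33.2 and 38.0 TPM in TE (-3.21 ± 0.46, adjusted p = 1.49e-07). Ddit3, the stress factor CHOP, had 15.6, 14.8 and 17.8 TPM in ExE and 147, 147 and 138 TPM in TE (-3.09 ± 0.56, adjusted p = 1.83e-05). Of the trophoblast groups set side by side, TE of E4.5 had the highest mean of each: Nupr1 was at 14.9 ± 5.22 TPM in TE of E3.5, Chac1 at 0.356 ± 0.323 TPM and Ddit3 at 44.0 ± 2.18 TPM. In TGC they were at 36.9 ± 3.30, 10.4 ± 1.90 and 21.7 ± 3.40 TPM. Sesn2, which stress also induces, was called higher (2.61), and these 3 genes were taken for the size of their decrease, not as a pathway.

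The other lower genes included Adh1, an alcohol dehydrogenase that also oxidises retinol, with 34.7, 35.3 and 34.1 TPM in ExE and 528, 557 and 584 TPM in TE (-3.96 ± 0.32, adjusted p = 6.65e-15). Adh1 was also called lower in ExE against TGC and against TE of E3.5, with 425 ± 19.3 TPM in TGC and 1945 ± 27.1 TPM in TE of E3.5. Dmkn, dermokine, an epithelial secreted protein, had 27.4, 24.4 and 29.3 TPM in ExE and 408, 378 and 303 TPM in TE (-3.69 ± 0.46, adjusted p = 7.11e-09). In TGC Dmkn was at 284 ± 20.8 TPM, and ExE was called lower there too (-3.35). Slc15a2, a peptide transporter, had 20.9, 15.2 and 22.4 TPM in ExE and 267, 271 and 238 TPM in TE (-3.68 ± 0.32, adjusted p = 8.31e-14). Efna1, an ephrin ligand, averaged 6.59 ± 0.739 TPM in ExE and 90.3 ± 12.8 TPM in TE (-3.58 ± 0.71, adjusted p = 7.6e-05). Genes of lower level that were called lower were Klk7, a serine protease (-3.18), Ubap1l (-3.42) and H2-Bl, a gene of the major histocompatibility complex (-3.14).

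Dppa3, a maternal factor that protects methylation marks in the zygote, had 29.9, 23.6 and 28.0 TPM in ExE and 299, 315 and 285 TPM in TE (-3.42 ± 0.46, adjusted p = 4.39e-08). In TE of E3.5 Dppa3 stood at 6203 ± 264 TPM, and ExE was called lower against that stage too (-7.79). Crxos, a homeobox gene of preimplantation embryos and embryonic stem cells, averaged 711 ± 40.7 TPM in ExE and 6933 ± 830.1 TPM in TE (-3.28 ± 0.55, adjusted p = 4.26e-06). Dppa5a, an RNA-binding protein of pluripotent cells whose processed copies can share reads, was among the most abundant RNAs in both, with 6834, 6832 and 7021 TPM in ExE and 25963, 23856 and 23921 TPM in TE (-1.83 ± 0.09, adjusted p = 1.4e-22).

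Of 23 primitive and visceral endoderm genes, 18 were called higher and 0 lower, with a median log2 difference of 3.17, the largest of the 30 lists, against 0.40 over all genes. The counts were the same after median-ratio scaling and quantile normalization. Spink1, a protease inhibitor, had 322, 328 and 300.0 TPM in ExE and was listed at 0 in TE (adjusted p = 9.63e-21). Amn, the amnionless subunit of the cubilin receptor, had 115, 142 and 150.1 TPM in ExE and 0.377, 0.843 and 0.493 TPM in TE (6.44 ± 0.44, adjusted p = 2.7e-17). Ttr, the thyroxine carrier of visceral endoderm, had 61.0, 58.0 and 55.0 TPM in ExE and was listed at 0 in TE. Srgn, a proteoglycan core of endoderm, had 297, 276 and 272 TPM in ExE and 1.98, 3.78 and 2.99 TPM in TE (6.20 ± 0.38, adjusted p = 7.01e-19), and Gata4, the endoderm GATA factor, 10.1, 7.41 and 8.502 TPM in ExE and 0.153, 0 and 0.0529 TPM in TE (3.17 ± 0.32). The groups overlapped for none of these 5 genes. Pga5, a pepsinogen, Lgals2, a galectin, and Apom, an apolipoprotein, were called alike (6.47, 6.23 and 5.40).

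The 18 called endoderm genes stood in ExE at 2.52% to 37.0% of their level in PrE, with a median of 14.3%, and PrE was above ExE in all 18. The summed TPM of the whole list was 2209 to 2389.6 in ExE and 243 to 266 in TE. It was 624 to 676 in TGC, 1610.3 to 1767 in Epi and 19078 to 19343 in PrE. Apoe alone averaged 1348 TPM of a mean sum of 1695 in Epi and 999 TPM of 2316 in ExE. Epi was above ExE for 1 of the 18 called genes, Apoe. Cer1 was the only member at 0 in all ExE libraries, whereas Foxa2, Hnf4a, Ttr, Spink1, Rbp4, Fgb and Cer1 were at 0 in all TE libraries. In ExE of E5.5 the sum was 2997 to 3218 in cultured embryos and 969 to 1014 in vivo. The part of endoderm cells or their RNA in the ExE values was not tested. Trophoblast genes in turn appeared in Epi, with Elf5 at 81.8 ± 2.86, Hand1 at 99.8 ± 6.73 and Krt18 at 812 ± 39.7 TPM.

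Of 12 parietal endoderm and basement membrane genes, 10 were called higher and 0 lower, with a median of 2.90. Higher and lower counts were 8 and 0 after median-ratio scaling and 8 and 0 after quantile normalization. Serpinh1, the collagen chaperone, had 39.8, 35.8 and 39.2 TPM in ExE and 0.240, 0 and 0.260 TPM in TE (5.08 ± 0.39, adjusted p = 1.28e-15). Col4a1, a chain of basement membrane collagen IV, had 25.7, 25.0 and 26.1 TPM in ExE and 0.274, 0.454 and 0.323 TPM in TE (4.30 ± 0.30, adjusted p = 8.26e-17). Sparc, a matrix protein of parietal endoderm, had 369.7, 350.4 and 373 TPM in ExE and 34.9, 34.0 and 37.8 TPM in TE (3.32 ± 0.16, adjusted p = 7.62e-23). PrE held more than ExE of 9 of the 10, with ExE at 15.3% to 59.0% of PrE.

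Of 17 epiblast genes, 13 were called higher and 1 lower (Dppa5a), with a median of 1.71. The counts were 11 and 1 after median-ratio scaling and 12 and 1 after quantile normalization. Pim2, a serine kinase, had 36.9, 29.2 and 34.0 TPM in ExE and 2.66, 1.09 and 1.12 TPM in TE (3.76 ± 0.32, adjusted p = 9.25e-14). Nanog, a pluripotency factor, had 16.4, 17.4 and 14.7 TPM in ExE and 0.640, 1.16 and 0.560 TPM in TE (3.28 ± 0.43, adjusted p = 2.56e-08). In Epi, Nanog was at 7.22 ± 2.58 TPM and Pim2 at 863 ± 31.3 TPM, so the gap to ExE runs in opposite directions for these genes. Tdgf1, the Nodal coreceptor Cripto, averaged 50.6 ± 2.94 TPM in ExE and 5.14 ± 0.420 TPM in TE (3.07 ± 0.21, adjusted p = 2.47e-17), with 542 ± 15.2 TPM in Epi. Fgf5, a marker of the primed epiblast, had 11.6, 10.3 and 9.35 TPM in ExE and was listed at 0 in TE. Its mean was 72.1 TPM in Epi and 159 TPM in PrE. Epi held more than ExE of 12 of the 13 genes called higher, and PrE held more than ExE of 11. The part of epiblast or endoderm RNA in these values was not tested. Of 4 uterine stroma and 5 blood genes tested, 0 were called in either direction, with Ptprc and Hbb-bs listed at 0 in all 6 libraries.

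Over all 2993 genes called higher, the mean level was highest in ExE among the 4 tissues of E4.75 for 399 (13.3%), in TGC for 346 (11.6%), in Epi for 1156 (38.6%) and in PrE for 1092 (36.5%). The same shares over all genes tested were 15.1%, 14.0%, 37.0% and 33.9%. Of the 283 lower genes, TGC was highest for 157 (55.5%) and ExE for 37 (13.1%).

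**Figure D3:**
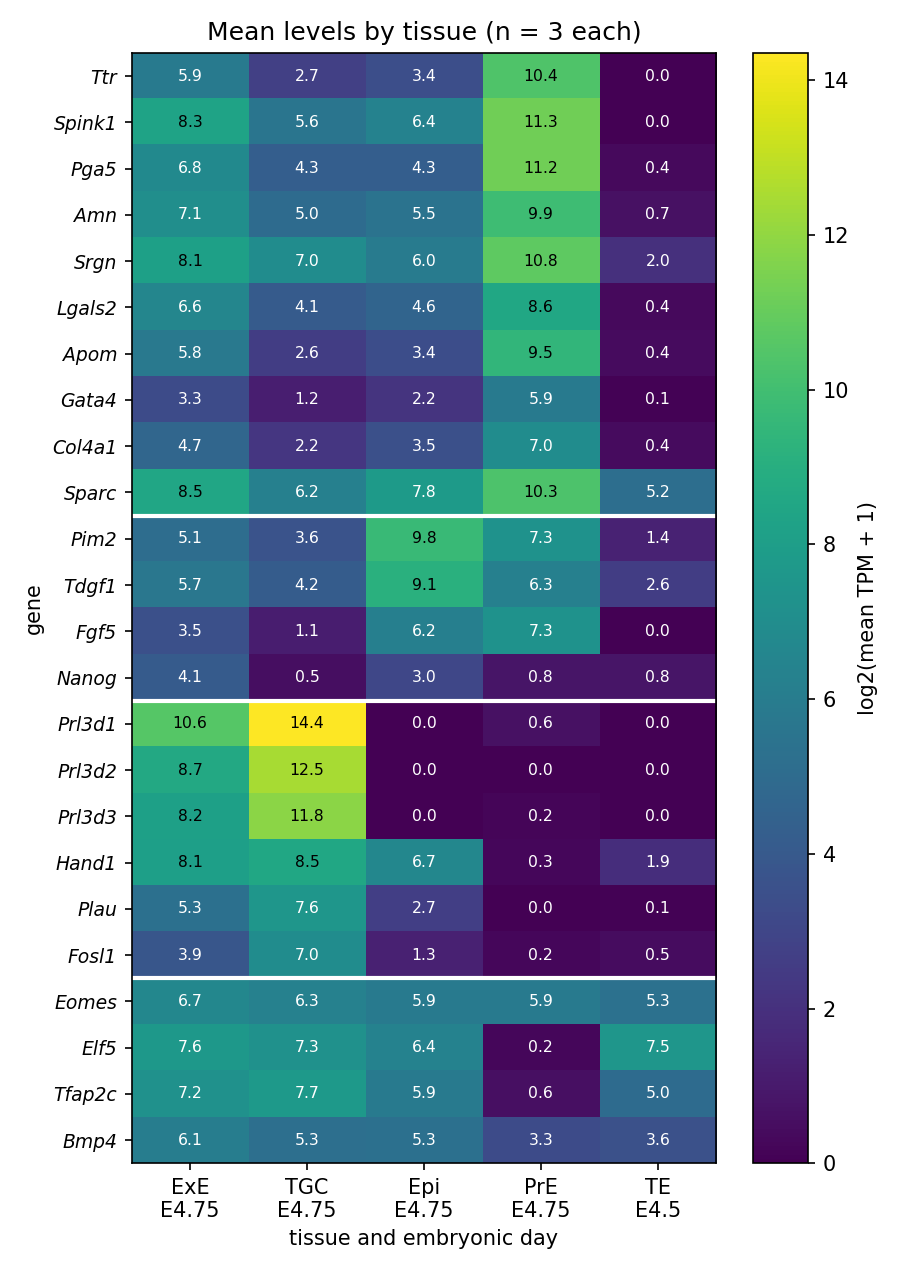
Heat map of log2(mean TPM + 1), printed in each cell and coloured, for genes (rows, in blocks of endoderm, epiblast, giant cell and ExE genes) in ExE, TGC, Epi and PrE of E4.75 and TE of E4.5 (columns, n = 3 each). The endoderm block is highest in PrE, the Prl3d genes in TGC and Bmp4 in ExE, and ExE holds values above TE in all 4 blocks.

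Imprinted genes, many of which control placental growth, were called higher in 11 of 18 and lower in 0, with a median of 1.09. H19 (chromosome 7, 142575529 to 142578143), a maternally expressed long noncoding RNA, had 357, 345 and 331 TPM in ExE, against 33.4, 32.3 and 33.0 TPM in TE. The groups did not overlap and varied little, with a log2 difference of 3.35 ± 0.32 (adjusted p = 4.2e-12). By stage H19 was at 0.642 ± 0.468 TPM in TE of E3.5, 32.9 ± 0.584 TPM in TE of E4.5 and 344 ± 12.9 TPM in ExE of E4.75. Cdkn1c, the CDK inhibitor p57, took the same order, with 0.0367 ± 0.0635 TPM in TE of E3.5, 3.79 ± 0.177 TPM in TE of E4.5 and 33.5 ± 2.64 TPM in ExE of E4.75 (ExE against TE of E4.5 2.85 ± 0.49, adjusted p = 5.79e-06). Mest, a paternally expressed hydrolase gene, averaged 30.7 ± 0.748 TPM in ExE and 2.03 ± 0.327 TPM in TE (3.39 ± 0.50, adjusted p = 2.76e-07). Peg3, a paternally expressed zinc finger gene, averaged 7.44 ± 1.03 TPM in ExE and 0.103 ± 0.0347 TPM in TE (2.93 ± 0.37, adjusted p = 8.16e-09). Peg10, a retrotransposon-derived gene needed for the placenta, was low in both, with 1.41 ± 0.104 TPM in ExE and 0.139 ± 0.0283 TPM in TE (1.08 ± 0.34, adjusted p = 0.0126), and was not called after median-ratio scaling (0.93) or quantile normalization (0.71). The list's higher and lower counts were 7 and 2 after median-ratio scaling and 6 and 1 after quantile normalization. PrE was above ExE for 3 of the 11 genes called higher as deposited and Epi for 5.

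Of 18 membrane transport genes, 8 were called higher and 2 lower (Slc15a2 and Aqp9), and 4 and 3 after median-ratio scaling and 4 and 3 after quantile normalization. Aqp8, a water channel, had 85.7, 80.0 and 92.4 TPM in ExE and 2.19, 1.16 and 1.44 TPM in TE (5.08 ± 0.30, adjusted p = 1.18e-19), and was at 584 ± 19.6 TPM in PrE. Slc16a3, the lactate exporter, had 14.4, 11.9 and 15.3 TPM in ExE and 0.0520, 0.107 and 0.0754 TPM in TE (3.78 ± 0.49, adjusted p = 1.26e-08). Slc2a1, the glucose transporter GLUT1, had 169.7, 176 and 191 TPM in ExE and 21.2, 22.5 and 27.7 TPM in TE (2.87 ± 0.21, adjusted p = 2.17e-16). Of 15 proteases and inhibitors of invasion 7 were called higher and 0 lower, with PrE above ExE for 6 of the 7 and Epi for 1. The counts were 6 and 0 after median-ratio scaling and 7 and 0 after quantile normalization. Of 18 lysosome genes 11 were higher and 0 lower, and 4 and 2 after median-ratio scaling and 6 and 0 after quantile normalization. Tfpi, the tissue factor pathway inhibitor, which is on neither list, had 150.01, 125 and 133 TPM in ExE and 2.196, 1.27 and 3.37 TPM in TE (5.43 ± 0.50, adjusted p = 8.98e-13). Its level was 449 ± 56.3 TPM in TGC and 370 ± 21.2 TPM in PrE, both above ExE. Ctsl, a lysosomal and secreted protease, averaged 400.4 ± 12.1 TPM in ExE and 93.8 ± 7.62 TPM in TE (2.09 ± 0.14, adjusted p = 5.26e-17), and Ctsd 303 ± 11.2 TPM in ExE and 69.6 ± 3.74 TPM in TE (2.11 ± 0.24). PrE was above ExE for all 11 lysosome genes. Cd63, a tetraspanin of late endosomes, was called lower after median-ratio scaling (-1.20, against -0.48 as deposited).

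Of 21 genes of FGF and ERK signalling, 10 were called higher and 0 lower, with a median of 1.04, and 9 and 0 after median-ratio scaling and 8 and 0 after quantile normalization. PrE was above ExE for 8 of the 10 and Epi for 8. Etv5, an ETS factor induced by ERK, had 5.88, 5.247 and 7.58 TPM in ExE and 0.394, 0.339 and 0.219 TPM in TE (2.45 ± 0.40, adjusted p = 3.11e-06). Dusp6, a phosphatase that damps ERK, averaged 132 ± 6.37 TPM in ExE and 74.0 ± 6.42 TPM in TE, and its difference of 0.83 ± 0.21 was short of 1 (adjusted p = 0.00201). Of 29 genes of BMP and Nodal signalling, 8 were called higher (27.6%, against 19.2% of all genes) and 0 lower. That 27.6% was below the share of the 10421 genes, of which 3143 were called higher. Those 8 were the ligands Bmp4, Bmp8b and Nodal, the receptor Acvr2b, the coreceptor Tdgf1, the inhibitors Lefty1 and Smad7, and the target Id1. The counts were 5 and 1 after median-ratio scaling and 5 and 0 after quantile normalization. PrE was above ExE for 4 of the 8 and Epi for 3. Lefty1 had 3.65, 4.83 and 4.85 TPM in ExE and was listed at 0 in TE, with a mean of 172 TPM in PrE. Bmpr1a, Bmpr2, Acvr1, Smad1, Smad4 and Smad5, which receive and carry the BMP signal, were not called. Of 21 Hippo pathway genes, 9 were called higher and 0 lower, and 4 and 0 after median-ratio scaling and 4 and 2 after quantile normalization. PrE was above ExE for 4 of the 9 and Epi for 3. Ankrd1, a target of YAP and TEAD, had 4.30, 3.35 and 6.52 TPM in ExE and 0, 0.298 and 0 TPM in TE (2.35 ± 0.42, adjusted p = 1.18e-05). Ajuba, a LIM protein that holds back LATS kinases, averaged 9.02 ± 0.752 TPM in ExE and 1.17 ± 0.423 TPM in TE (2.22 ± 0.39, adjusted p = 9.5e-06), and Amot, which binds YAP at junctions, 8.33 ± 0.409 TPM in ExE and 1.69 ± 0.421 TPM in TE (1.80 ± 0.30). Yap1, Wwtr1, Lats1 and Lats2 were not called.

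Glycolysis genes were called higher in 10 of 18 and lower in 0, with a median of 1.43. The counts were 6 and 0 after median-ratio scaling and 10 and 0 after quantile normalization. Epi was above ExE for 8 of the 10 and PrE for 7. Pfkl, liver phosphofructokinase, had 100.03, 106 and 126 TPM in ExE and 11.5, 11.6 and 9.70 TPM in TE (3.22 ± 0.18, adjusted p = 1.41e-20). Pfkp, the platelet form of the same enzyme, had 65.3, 64.3 and 64.8 TPM in ExE and 6.84, 4.752 and 3.94 TPM in TE (3.44 ± 0.33, adjusted p = 3.65e-12), and its level in TE of E3.5 was 0.377 ± 0.118 TPM. The 2 forms differed in TGC, with Pfkp at 177 ± 5.97 TPM, called lower in ExE (-1.43), and Pfkl at 59.9 ± 1.95 TPM, not called (0.87). Of 15 hypoxia response genes, 4 were called higher (26.7%, against 19.2% of all genes) and 2 lower. Their median of 0.05 was below that of all genes, and 26.7% was below the share of the 10421 genes (3143 higher). The higher genes were P4ha1, Hif1a, P4ha2 and Kdm3a, and the lower genes Bnip3 and Egln1. The balance turned in both scalings, to 2 and 3 after median-ratio scaling and 2 and 4 after quantile normalization, and P4ha2 and Kdm3a lost their calls in both. P4ha1, a collagen prolyl hydroxylase, averaged 20.8 ± 1.65 TPM in ExE and 0.605 ± 0.549 TPM in TE (3.82 ± 0.35, adjusted p = 1.06e-12). Hif1a, the oxygen-regulated transcription factor subunit, averaged 48.2 ± 3.36 TPM in ExE and 7.33 ± 0.764 TPM in TE (2.56 ± 0.24, adjusted p = 9.91e-13). Its targets Bnip3, a mitophagy receptor, and Egln1, the oxygen sensor that marks HIF for decay, were lower, with Bnip3 at 100.3 ± 8.71 TPM in ExE and 247 ± 16.8 TPM in TE (-1.30 ± 0.19, adjusted p = 1.63e-07). Egln1 averaged 5.34 ± 0.379 TPM in ExE and 14.4 ± 0.641 TPM in TE (-1.29 ± 0.49, adjusted p = 0.0403), a call lost whichever library was left out (adjusted p from 0.0726 to 0.0980).

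Of 22 cholesterol synthesis genes, 10 were called higher and 0 lower, with a median of 1.02. The counts were 4 and 1 after median-ratio scaling and 2 and 0 after quantile normalization. PrE was above ExE for all 10, with ExE at 16.6% to 47.4% of PrE, and Epi for 8. Dhcr7, which makes cholesterol from its last precursor, averaged 17.0 ± 3.00 TPM in ExE and 1.71 ± 0.317 TPM in TE (2.73 ± 0.33, adjusted p = 2.78e-09). Of 19 lipid droplet and fatty acid genes, 7 were called higher and 2 lower, with PrE above ExE for 6 of the 7 and Epi for 4. The excess of higher calls was gone in both scalings (3 and 3 after median-ratio scaling and 3 and 3 after quantile normalization). Dgat2, which makes triglycerides, averaged 20.6 ± 3.71 TPM in ExE and 3.07 ± 0.949 TPM in TE (2.42 ± 0.50, adjusted p = 0.000139). The 2 lower genes were Fabp3, a fatty acid carrier, with 4254, 4376 and 4536 TPM in ExE and 13588, 12907 and 12524 TPM in TE (-1.57 ± 0.16, adjusted p = 4.51e-11), and Plin2, a coat protein of lipid droplets, with 111 ± 2.33 TPM in ExE and 239 ± 20.4 TPM in TE (-1.10 ± 0.29, adjusted p = 0.00259).

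Fewer cell cycle genes were called once the median gene was aligned, as over all genes, where the share called higher was 19.2% as deposited and 7.45% after median-ratio scaling. Of 23 DNA replication genes, 13 were called higher and 0 lower (median 1.34), with Epi above ExE for all 13 and PrE for 1. The counts were 3 and 2 after median-ratio scaling and 5 and 0 after quantile normalization. Of 23 mitosis genes, 14 were called higher and 0 lower (median 1.08), with Epi above ExE for 10 of the 14 and PrE for 5. The counts were 4 and 1 after median-ratio scaling and 2 and 0 after quantile normalization. Those whose call held included Plk1, a mitotic kinase, with 131 ± 9.45 TPM in ExE and 24.4 ± 2.30 TPM in TE (2.38 ± 0.17, adjusted p = 1.14e-16, and 1.68 after median-ratio scaling). Mcm7, a subunit of the replicative helicase, averaged 130.3 ± 6.22 TPM in ExE and 37.5 ± 3.38 TPM in TE (1.77 ± 0.16, adjusted p = 1.15e-12, and 1.07 after that scaling). Of 18 genes of the endocycle and CDK inhibitors, 8 were called higher and 0 lower, with Epi above ExE for 7 of the 8 and PrE for 4. The counts were 5 and 0 after median-ratio scaling and 4 and 1 after quantile normalization. Ccnd3, a G1 cyclin, had 201, 215 and 242 TPM in ExE and 30.3, 18.2 and 30.6 TPM in TE (3.04 ± 0.56, adjusted p = 2.28e-05), with 382 ± 39.6 TPM in TE of E3.5. Fzr1, the APC/C activator that drives giant cell endocycles, averaged 72.0 ± 8.87 TPM in ExE and 12.4 ± 3.40 TPM in TE (2.46 ± 0.34, adjusted p = 7.31e-08). Of 17 p53 targets, 10 were called higher and 0 lower (median 1.42), and 5 and 0 after median-ratio scaling and 4 and 0 after quantile normalization. One of them was Sesn2, a stress-induced inhibitor of mTORC1, with 28.1 ± 3.12 TPM in ExE and 3.81 ± 0.890 TPM in TE (2.61 ± 0.45, adjusted p = 7.4e-06).

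Genes of chromatin regulators were called mostly higher as deposited, and the balance moved with the scaling. Of 32 Polycomb genes, 11 were higher (34.4%, against 19.2% of all genes) and 0 lower. Their median of 0.71 was near the 0.70 of the 10421 genes, of which 3143 were called higher. Epi was above ExE for 9 of the 11 and PrE for 8. The counts were 6 and 3 after median-ratio scaling and 5 and 3 after quantile normalization. Among the 11 was Epop, an accessory protein of PRC2, with 31.2 ± 6.11 TPM in ExE and 5.84 ± 1.38 TPM in TE (2.24 ± 0.38, adjusted p = 4.36e-06). Kdm2b, which brings a variant PRC1 to CpG islands, averaged 27.3 ± 1.78 TPM in ExE and 5.78 ± 0.967 TPM in TE (2.07 ± 0.33, adjusted p = 1.98e-06). The PRC2 core genes Ezh2, Eed and Suz12 were not called. Of 18 H3K4 methyltransferases and H3K4 and H3K27 demethylases, 7 were higher and 0 lower, with Epi above ExE for all 7 and PrE for 5. The counts were 2 and 0 after median-ratio scaling and 2 and 1 after quantile normalization. Among the 7 was Kmt2d, an enhancer methyltransferase, at 3.76 ± 0.766 TPM in ExE and 0.617 ± 0.0742 TPM in TE (1.55 ± 0.32, adjusted p = 0.000163). Of 13 DNA methylation genes, 6 were higher and 1 lower (Dppa3), with Epi above ExE for all 6 and PrE for all 6. The counts were 4 and 1 after median-ratio scaling and 2 and 1 after quantile normalization. Zfp57, which guards methylation at imprinted loci, had 34.1, 29.1 and 30.3 TPM in ExE and 2.79, 2.53 and 3.18 TPM in TE (3.07 ± 0.24, adjusted p = 2.97e-15). Uhrf1, which recruits the maintenance methyltransferase, averaged 49.6 ± 2.96 TPM in ExE and 13.4 ± 0.425 TPM in TE (1.81 ± 0.23, adjusted p = 9.2e-09), just short of 1 after quantile normalization (0.98). Of 24 developmental regulators tested, of the kind often marked by both H3K4me3 and H3K27me3, 10 were higher and 0 lower, with Gata4, Hand1 and Foxa2 among them, and 7 and 0 after median-ratio scaling and 7 and 0 after quantile normalization. For 7 of these 10 PrE was above ExE.

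Of 19 immediate early and heat shock genes, 9 were called higher and 2 lower (Ddit3 and Fosb), and the counts were 5 and 5 after median-ratio scaling and 6 and 3 after quantile normalization. Junb, an AP-1 subunit needed in the placenta, had 59.5, 61.5 and 62.2 TPM in ExE and 4.86, 4.36 and 6.37 TPM in TE (3.34 ± 0.33, adjusted p = 6.17e-12). Hspb1, a small heat shock protein, had 402, 464 and 494 TPM in ExE and 78.2, 81.9 and 94.9 TPM in TE (2.40 ± 0.15, adjusted p = 2.97e-18). Its mean was 136 TPM in TGC, 1118 TPM in Epi and 1567 TPM in PrE. Fosb was low, with 0.716 ± 0.0616 TPM in ExE and 2.48 ± 0.389 TPM in TE (-1.01 ± 0.38, adjusted p = 0.0401), and lost its call whichever library was left out (adjusted p from 0.0599 to 0.118).

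**Figure D4:**
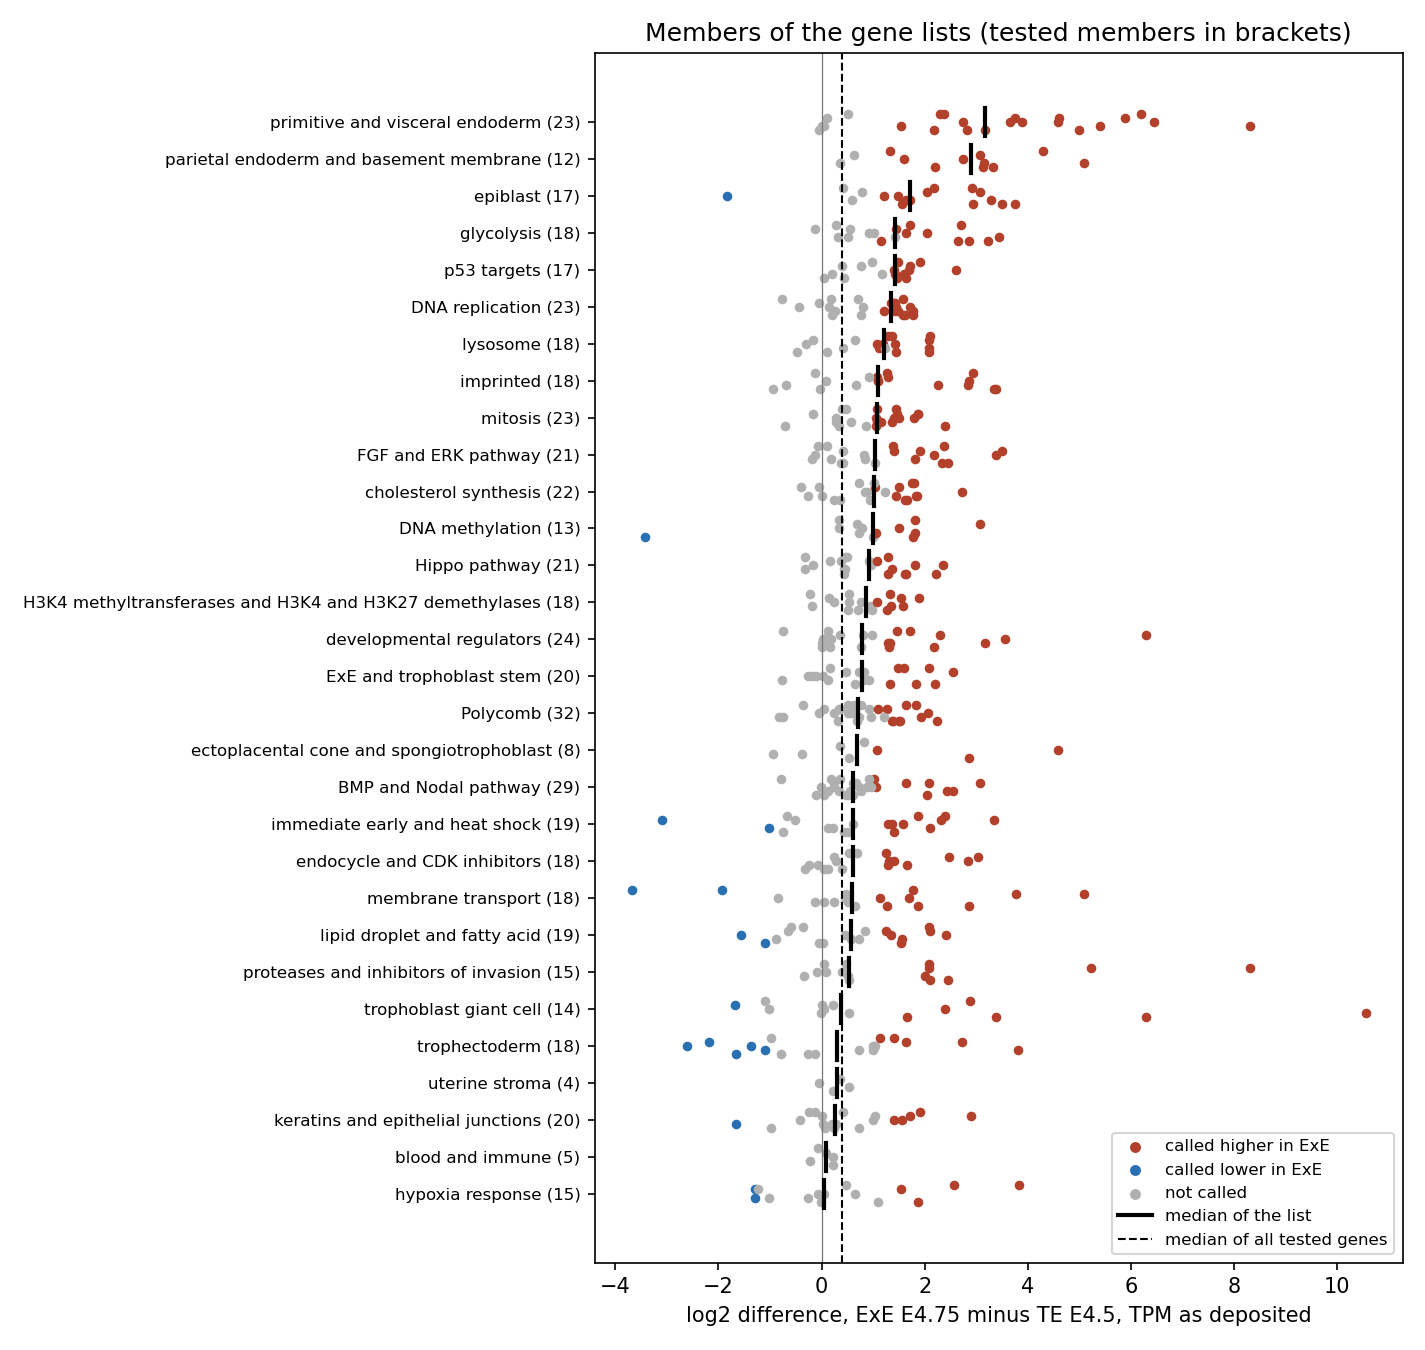
Log2 difference (ExE of E4.75 minus TE of E4.5, x axis, TPM as deposited) of every tested member of the 30 gene lists, 1 point per gene, red where called higher, blue where called lower and grey otherwise, with a black bar at the list's median and a dashed line at the median of all genes. The endoderm lists reach furthest right with medians of 3.17 and 2.90, and the trophectoderm list spreads to both sides.

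The direct comparison of ExE with TGC, the other trophoblast tissue of E4.75, shares the ExE libraries with the comparison above. It called 678 genes (4.36%), 348 higher in ExE (2.24%) and 330 lower (2.12%), with a median of 0.15. After median-ratio scaling 221 were higher (1.42%) and 449 lower (2.88%), and after quantile normalization 266 were higher (1.71%) and 430 lower (2.76%), so the higher share was 51.3% as deposited and 33.0% and 38.2% after them. Of the 14 giant cell genes 1 was higher in ExE than in TGC and 7 lower, and of the 23 endoderm genes 17 were higher and 0 lower. Of the 20 genes of ExE and trophoblast stem cells 0 were higher and 1 lower. Eomes averaged 100.2 ± 7.98 TPM in ExE and 77.1 ± 7.10 TPM in TGC (0.37 ± 0.24, adjusted p = 0.57), and Elf5 198 ± 12.5 TPM in ExE and 152 ± 9.60 TPM in TGC (0.38 ± 0.24, adjusted p = 0.55). Bmp4 averaged 67.9 ± 3.96 TPM in ExE and 37.4 ± 1.34 TPM in TGC (0.84 ± 0.61, adjusted p = 0.66), and Ascl2 123 ± 9.28 TPM in ExE and 74.1 ± 6.21 TPM in TGC (0.72 ± 0.60, adjusted p = 0.754). None of these 4 was called. Genes that did separate the tissues were Dab2, at 472 ± 26.7 TPM in ExE and 108 ± 7.17 TPM in TGC (2.11 ± 0.29, adjusted p = 2.38e-07), and Adh1, at 34.7 ± 0.578 TPM in ExE and 425 ± 19.3 TPM in TGC (-3.58 ± 0.32, adjusted p = 4.96e-13).

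Against TE of E3.5, again with the same ExE libraries, 2518 genes were called (16.2%), 1394 higher in ExE (8.95%) and 1124 lower (7.22%), with a median of 0.10. The list counts against the 2 trophectoderm stages stand side by side here, and the gap between them was not tested. Against TE of E3.5 the 20 genes of ExE and trophoblast stem cells had 9 higher and 1 lower (Cdx2 at -3.13), and against TE of E4.5 they had 7 higher and 0 lower. Elf5 was among the 9 (3.88 ± 0.24, adjusted p = 3.3e-19). DNA replication had 0 called in either direction against TE of E3.5 and 13 higher against TE of E4.5. Mitosis had 1 higher and 0 lower against TE of E3.5 and 14 higher and 0 lower against TE of E4.5. Lysosome had 3 higher and 7 lower against TE of E3.5, and 11 higher and 0 lower against TE of E4.5. Cholesterol synthesis had 16 higher and 0 lower against TE of E3.5, and 10 and 0 against TE of E4.5. The endoderm list had 15 higher and 1 lower against TE of E3.5, and 18 and 0 against TE of E4.5. The libraries of TE of E3.5 had scaling factors of 0.961 to 1.01 and Rn45s at 4633 to 5343 TPM, both apart from the values of TE of E4.5, and the part of this in the gap between the 2 counts was not tested.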

How the data were processed

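RNA was measured in 67 wild-type libraries of 23 groups. Per the labels' protocols, cDNA from about 10 to 100 cells was amplified for 17 cycles. The deposited table holds the authors' TPM for 25006 genes. The tools named, per the submitters' processing notes, are Cufflinks, StringTie 2.2.1 and HISAT2 2.2.1, with build mm10. What each tool did, which annotation was used and whether strand counted is not given in the sources used here. Reads of overlapping, antisense or near-identical genes may thus be split. TPM keeps no depth, so no counting interval can be given, and a gene at exactly 0 is called listed at 0, with no fold.

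The 15567 genes that reached 1 TPM in 3 or more libraries were tested. The log2 values were computed here from the deposited TPM as log2(TPM + 1), and 1 limma 3.58.1 fit (R 4.3.3, empirical Bayes with trend) took the means of all 23 groups, so that groups of few libraries share 1 estimate of spread per gene. Every adjusted p is from limma with Benjamini-Hochberg adjustment over all genes tested, and a standard error follows each log2 difference. The fit was tested on simulated data. Figures and summaries used python 3.11.15.

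The comparison, its markers, the 30 gene lists (522 of 526 symbols in the table) and the motifs were chosen with earlier results of these data known. Genes were named from Eomes and Elf5, the 12 largest changes in each direction without overlap (no predicted, Y-linked or Xist genes), and up to 3 called and 2 uncalled members per list. Not all genes so named are described. Cdx2, Sox2, Wnt7b, Usp9x, Rn45s, Cldn4, Aqp3, Lgals1, Acer1, Kdm3a, Pkp2, Eif2s3y, Xist and any gene given only as part of a list's count were added after their values were seen. Positions are GENCODE vM21's on GRCm38, the assembly that mm10 names, with 1 position for 110 of the 112 genes looked up, and promoter sequences are RefSeq's on GRCm38.p6. Alternatives were dropping Rn45s, a pseudocount of 0.1 TPM, 3 other filters, quantile normalization, median-ratio scaling, a fit of 6 libraries with and without a replicate block, array weights, leaving out each library, and calls with no minimum difference.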

Additional observations from a re-analysis of the deposited data

How the results depend on the processing

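Against TE of E4.5, the 3276 calls became 1845 after quantile normalization, with 965 higher and 880 lower, and 1160 were higher and 1030 lower after median-ratio scaling. Without a minimum difference 650 were lower. Requiring that ExE also have the highest mean of the 4 tissues of E4.75, an alternative chosen after seeing the data, left 399 higher and 37 lower. Leaving out 1 library gave 2748 to 2924 calls, 2502 to 2680 higher and 244 to 256 lower. In these fits 27 of the 30 lists had more members higher than lower each time. Of all calls 90.8% to 91.7% were higher there, so that count says little about single lists. The Rn45s share differed between ExE and TE by 0.457 percentage points, and by 0.426 to 0.515 with 1 library left out.

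Against TGC, the 678 calls with 348 higher became 1037 with 584 higher in a fit of only the 6 libraries, 1042 with 585 under array weights, and 1090 with 662 with no minimum difference. Median-ratio scaling left 221 higher. Leaving out 1 library gave 530 to 570 calls, 246 to 283 higher and 282 to 292 lower. Against TE of E3.5 it gave 2231 to 2299 calls, 1210 to 1263 higher and 1003 to 1078 lower.

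Same-numbered ExE and TE libraries had deviations correlated at -0.04 to -0.02, so no pairing by replicate number was seen. Values from 3 libraries per group cannot show that same-numbered libraries had separate embryos, so pairing stays unknown. With the replicate block and 6 libraries, 4088 genes were called against TE of E4.5, 1043 against TGC (589 higher) and 3146 against TE of E3.5.

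Of the genes described, Elf5 changed direction, to -0.60 after median-ratio scaling and -0.023 after quantile normalization. Of the 112, 97 kept direction and call under median-ratio scaling and 99 under quantile normalization, with 9 and 12 calls lost and 5 and 0 gained. The pseudocount of 0.1 TPM lost 11 calls. The causes were not tested.

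Depth is unknown, the groups differ in the share of TPM held by their top genes, in Rn45s and in Y-linked RNA, and each group is 3 small pools amplified by PCR. None of these can be told apart from the step from TE to ExE.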
